A study of Mus musculus with 5 samples.

Results

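The genes of the mitochondrial respiratory chain were followed in 5 single-cell RNA-seq libraries of mouse submandibular salivary gland cells. Members were the genes whose symbol begins with Nduf, Uqcr, Sdh, Atp5, Cox4, Cox5, Cox6, Cox7 or Cox8, together with the 13 protein genes of the mitochondrial genome. The rule uses names only, and a minimum count was then applied. It found 113 gene IDs, of which 108 had at least 50 unique molecular identifiers (UMIs, each standing for 1 captured transcript) over all deposited barcodes of the 5 libraries. Ndufb1-ps was listed for 1 library only, which left 107 members for comparison, 94 nuclear and 13 mitochondrial, among 13721 genes with as many UMIs in both gene lists. Cox4i2, Cox6a2, Cox7b2, Cox8c and a further ID of Atp5o stayed below 50 UMIs. By function, the nuclear members were 36 subunits of complex I, 4 of complex II, 8 of complex III, 16 of complex IV, 17 of complex V and 13 assembly factors. Ndufa4 and Ndufa4l2, named for complex I, were placed with complex IV, where their products are found.

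The samples were mouse salivary gland organoids (mSGOs), grown in Matrigel with Wnt3a- and R-spondin1-conditioned medium, and gland tissue. The control, photon and proton libraries were 7-day mSGOs of C57BL/6 mice aged 8 to 12 weeks, either not irradiated or given 7 Gy of photons or 7 Gy of protons (plateau region of the beam) on day 5. The others were non-irradiated 11-day mSGOs of C57BL/6 mice whose age is not labelled, and freshly isolated, non-irradiated submandibular gland tissue of C57BL/6 mice aged 8 to 12 weeks. Organoids were derived from 4 animals, and cells of different animals cannot be separated here. From each sample, 45000 cells that excluded propidium iodide were sorted for 3′ droplet sequencing. Each group is 1 library, so no test between groups was possible and every interval given covers counting error only. For the 11-day mSGOs, animals of a different batch and a separate run were used, and the file names another software version. Age in culture, run, animals and counting cannot be told apart in any comparison with them.

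The respiratory chain passes electrons from NADH (complex I) or succinate (complex II) through complex III to oxygen at complex IV, and complex V uses the proton gradient so built to make ATP. Most subunits are encoded in the nucleus, translated in the cytosol and imported, whereas a few hydrophobic core subunits of complexes I, III, IV and V are encoded by mitochondrial DNA. Complex II is wholly nuclear. In salivary glands, mitochondria are packed most densely into the striated ducts and into the ionocytes, the ductal cells rich in proton pumps, which spend ATP on ion transport.

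Nuclear respiratory genes share short promoter elements read by NRF1, ETS factors (NRF2/GABP) and YY1. Promoter windows from RefSeq (GRCm38.p6, 250 bases before to 50 after the gene start) were found for 78 of the 94 nuclear members. The NRF1 consensus, searched on both strands, occurred in the windows of 21 of the 78 (26.9%), against 5.12% of 26947 other genes. The ETS letters CCGGAAG occurred in those of 22 (28.2%, against 9.87%) and the YY1 letters AAGATGGCG in 8 (10.3%, against 1.61%). Of the 78, 35 held none of these strings, 35 held 1 kind and 8 held 2 kinds. Unlike the members, the other genes had to reach no minimum of UMIs, so these shares compare unlike sets. A match describes the letters and is not evidence of binding. The stretches below, each 60 bases and 5′ to 3′ on the strand of the gene, belong to 6 members, of which 5 return in the results; capitals mark the matches, on either strand.
Uqcr11, chr10:80406854-80406913, minus strand, ETS: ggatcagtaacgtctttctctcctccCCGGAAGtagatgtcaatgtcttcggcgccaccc
Ndufa11, chr17:56717677-56717736, plus strand, NRF1: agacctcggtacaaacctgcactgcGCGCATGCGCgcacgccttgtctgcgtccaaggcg
Sdha, chr13:74350241-74350300, minus strand, NRF1 at both ends: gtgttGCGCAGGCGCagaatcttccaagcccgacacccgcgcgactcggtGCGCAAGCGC
Sdhd, chr9:50603894-50603953, minus strand, NRF1, with the start of an ETS match at its end: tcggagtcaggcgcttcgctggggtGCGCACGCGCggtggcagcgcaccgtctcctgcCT
Atp5k, chr5:108434415-108434474, minus strand, NRF1: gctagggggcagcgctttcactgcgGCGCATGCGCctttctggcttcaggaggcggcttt
Atp5j, chr16:84835030-84835089, minus strand, YY1 and ETS: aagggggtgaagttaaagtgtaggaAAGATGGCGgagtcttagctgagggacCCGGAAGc
Uqcr11 and Ndufa11 were among the members whose levels followed the nuclear sum closely over cell clusters, Sdha and Sdhd moved in opposite directions in 11-day mSGOs, and Atp5k differed in direction between the photon and proton libraries, as described below. Atp5j is shown only because it carries matches to 2 kinds of element.

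UMIs were summed per library over barcodes with at least 200 genes and at most 5% mitochondrial UMIs, after doublet removal, and are given as CPM, that is scaled to a common library total. Kept barcodes numbered 6494 (control), 15610 (photon), 15325 (proton), 9484 (11-day) and 1402 (tissue), with 15791450, 25329838, 24769981, 31894486 and 5930928 UMIs. Malat1, a nuclear RNA, made up at least 1% of UMIs in 15.97%, 10.0% and 8.95% of kept barcodes of the 3 7-day libraries, in 98.8% of those of 11-day mSGOs and in 11.3% of those of tissue. This split goes with the mitochondrial share, so medians of the members were also taken for the barcodes on either side of it. Fewer cells of a type and less RNA per cell cannot be told apart in such sums. Acinar markers summed to 567397 CPM in tissue and to at most 47.5 CPM in mSGOs, and 10 genes took 76.6% of tissue UMIs, so every other gene of that library has little room. Libraries shared 33 to 98 barcodes pairwise, at most 0.559% of the smaller library.

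Nuclear members took up 2.56% of UMIs in control mSGOs, 2.51% after photons, 2.37% after protons, 2.25% in 11-day mSGOs and 0.980% in tissue. Mitochondrial members took up 0.878%, 0.818%, 0.818%, 2.72% and 1.76% in the same order. The nuclear share was thus close among the mSGOs and low in tissue, while the mitochondrial share was high in 11-day mSGOs and in tissue. For each nuclear member UMI there were 0.342 mitochondrial ones in the control, 0.325 after photons, 0.345 after protons, 1.21 in 11-day mSGOs and 1.79 in tissue. Exact binomial 95% intervals of these shares reached at most 0.0106 percentage points from the value.

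The 5% limit is itself a limit on the summed mitochondrial members, so their share was also taken without it. With no limit and no doublet removal it was 1.09%, 1.24%, 1.23%, 3.41% and 6.70%, from control to tissue, and the nuclear share was 2.53%, 2.46%, 2.32%, 2.09% and 1.12%. The order of the irradiated and control libraries in mitochondrial share turned with this setting, and tissue passed 11-day mSGOs. Barcodes over the limit made up 3.90% (control), 4.72% (photon), 4.03% (proton), 27.5% (11-day) and 27.3% (tissue) of those with at least 200 genes. In these barcodes the nuclear members took only 0.776% of UMIs in 11-day mSGOs but 1.45% in tissue, above the 0.980% of the kept tissue barcodes.

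**Figure D1:**
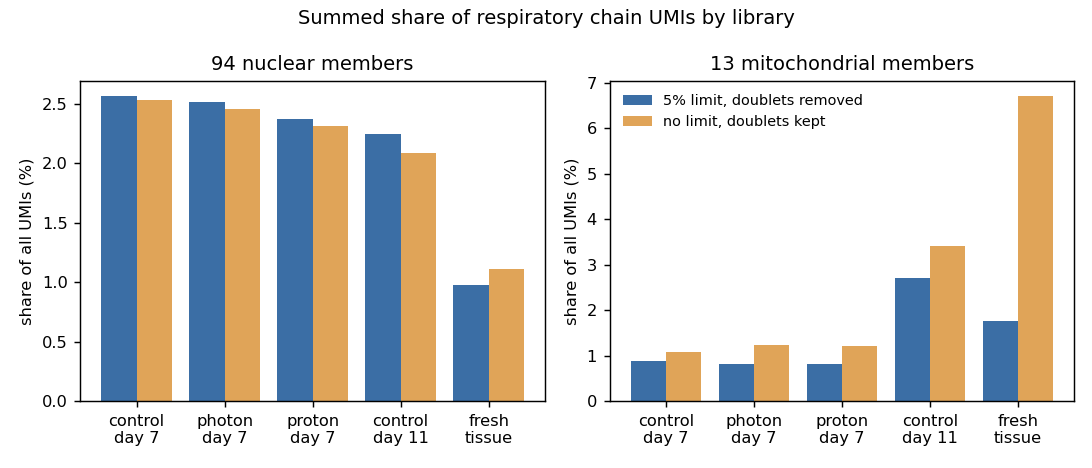
Share of UMIs (percent) taken by the nuclear and by the mitochondrial respiratory chain members in each of the 5 libraries, for kept barcodes and without the mitochondrial limit and doublet removal. The nuclear share is between 2.25% and 2.56% in the mSGO libraries and 0.980% in tissue, while the mitochondrial share of tissue goes from 1.76% to 6.70% when the limit is lifted.

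The question of the photon comparison is how the organoid cells differ 2 days after irradiation. Nuclear members lay near the control after photons, with a median log2 ratio of 0.05 (all genes 0.07; -0.06 and 0.00 under median-of-ratios scaling), 58 higher and 35 lower (Cox8b had 0 UMIs in both). That is 61.7% and 37.2% of the members, near the 61.3% and 35.7% of all genes. Members were counted as higher by a fold of at least 25% and as lower by the inverse of that fold, at least 20%, on the scale of CPM with a pseudocount of 1. At least 25% higher were 4 nuclear members, where 16.5% of all genes were, and 1 was at least 20% lower, where 6.44% of all genes were. Median log2 ratios by complex were 0.09 for I, 0.05 for II, 0.02 for III, -0.02 for IV, -0.02 for V and 0.22 for assembly factors. All of these groups of subunits were within 0.1 of the control on the log2 scale.

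Ndufa4l2, a paralogue of Ndufa4 known as a hypoxia-induced gene, was the one nuclear member at least 20% lower after photons (ENSMUSG00000040280, chr10:127350818-127353038, GRCm39). It stood at 301 CPM in control, 167 after photons, 203 after protons, 11.5 in 11-day mSGOs and 0 in tissue. Against control this is a log2 ratio of -0.85 for photons (95% interval -0.91 to -0.79) and of -0.57 for protons (-0.63 to -0.51). Both intervals lie well below 0, and among barcodes with at least 1% Malat1 the ratios were -0.94 and -0.51. Its paralogue Ndufa4 stood at 683 CPM in control, 592 after photons and 561 after protons, a smaller difference in the same direction.

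The opposite was seen for Cox6b2, the testis-type isoform of a complex IV subunit (ENSMUSG00000051811, chr7:4754789-4756093, GRCm39). It stood at 7.16 CPM in control, 19.4 after photons, 17.8 after protons, 6.46 in 11-day mSGOs and 0.843 in tissue. Its log2 ratio to control was 1.32 for photons (1.14 to 1.75) and 1.21 for protons (1.01 to 1.63), and the control value rests on 113 UMIs. The general isoform Cox6b1 was 613, 609 and 538 CPM in these libraries and so was not higher after irradiation. Cox6a1, the general isoform of another small subunit, was 137 CPM in control, 169 after photons and 145 after protons.

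Further members high after photons were the complex II assembly factors Sdhaf4 (28.4 CPM in control, 38.8 after photons, log2 ratio 0.44, interval 0.29 to 0.61) and Sdhaf2 (19.4 and 24.1 CPM, log2 ratio 0.30). Ndufb7, a small complex I subunit, went from 94.9 to 120 CPM (log2 ratio 0.33). On the low side were the gamma subunit of ATP synthase, Atp5c1 (485 and 394 CPM, log2 ratio -0.30), and Atp5g2, which encodes its c-ring subunit (1073 and 873 CPM, -0.30). These differences exceed counting error, but with 1 library a group they could not be set against the spread between cultures.

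After protons, nuclear members leaned lower than after photons. The median log2 ratio to control was -0.02 (all genes 0.06), with 38 higher (40.4%, against 59.4% of all genes) and 55 lower (58.5%, against 37.5%). At least 20% lower were 7 of 94 nuclear members, a share near the 7.8% of all genes, and 2 were at least 25% higher, where 14.4% were. The lower ones included Atp5k, Ndufa5, Ndufv3 and Atp5e besides Ndufa4l2, with log2 ratios of -0.43, -0.41, -0.40, -0.39 and -0.57. The subunits of complex V had the lowest median by complex (-0.16), and those of complex II the highest (0.09), where the flavoprotein subunit Sdha went from 26.9 to 32.5 CPM (log2 ratio 0.26). The photon and proton comparisons share the control library, so a control value that is off by chance moves both.

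Set directly against photons, protons gave lower levels of 64 nuclear members (68.1%, against 50.5% of all genes) and higher levels of 29 (30.9%, against 46.8%), with a median log2 ratio of -0.09 (all genes -0.00). At least 20% lower were 8 nuclear members, where 5.61% of all genes were, and 0 of 94 were at least 25% higher, where 2.98% of all genes were. The 8 were Atp5k, Ndufa3, Atp5md, Ndufa5, Atp5mpl, Ndufc1, Uqcr11 and Ndufa1, all of them small accessory subunits. Of these, 3 belong to complex V, 4 to complex I and 1 to complex III.

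Atp5k, the e subunit of ATP synthase that helps to join its dimers, had the lowest of these ratios (ENSMUSG00000050856, chr5:108581110-108582949, GRCm39). It stood at 68.0 CPM in control, 86.9 after photons, 50.1 after protons, 36.6 in 11-day mSGOs and 73.9 in tissue. Its log2 ratio between protons and photons was -0.78 (-0.90 to -0.69), with the control lying between them. Of all 107 members it was the only one at least 25% above control after one kind of irradiation and at least 20% below after the other. The share of all genes with such a pattern was not counted. Atp5md, another small subunit of the same membrane part, was 223, 256 and 178 CPM in control, photon and proton libraries, so that it too lay above control after photons and below it after protons.

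By transcript length, the nuclear members under 700 bases had the lowest medians after protons. Among those whose canonical transcript (GENCODE vM39) is 500 to 700 bases long, 17 of 18 were lower after protons than after photons, with a median log2 ratio of -0.17, and among the 5 members under 500 bases the median was -0.31. Members of 700 to 1000 bases had a median of -0.06 (11 of 18 lower), those of 1000 to 2000 bases one of -0.03 (14 of 24) and those of 2000 bases or more one of -0.04 (18 of 29). Of the 8 named above, Atp5k, Ndufa1 and Ndufa3 are under 700 bases, whereas Atp5mpl, Atp5md and Uqcr11 have canonical transcripts of 2877, 2812 and 2746 bases. Of the other genes of 500 to 700 bases at 20 CPM or more, 34 of 55 were lower, with a median of -0.06, and the 6 other genes under 500 bases had a median of -0.54. Short ribosomal protein genes (under 500 bases) had a median of -0.44 over 6 genes. Genes under 500 bases outside the chain, few in number, were thus low as well, while those of 500 to 700 bases lay nearer to 0. What part transcript length has in the values of the members was not tested. Over all lengths, Spearman's rho between length and ratio was 0.21 for the 94 nuclear members and -0.05 for 3914 other genes, given as a description since all genes share 2 libraries. Between 11-day and control mSGOs it was larger, 0.36 for the members and 0.42 for 3616 other genes.

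**Figure D2:**
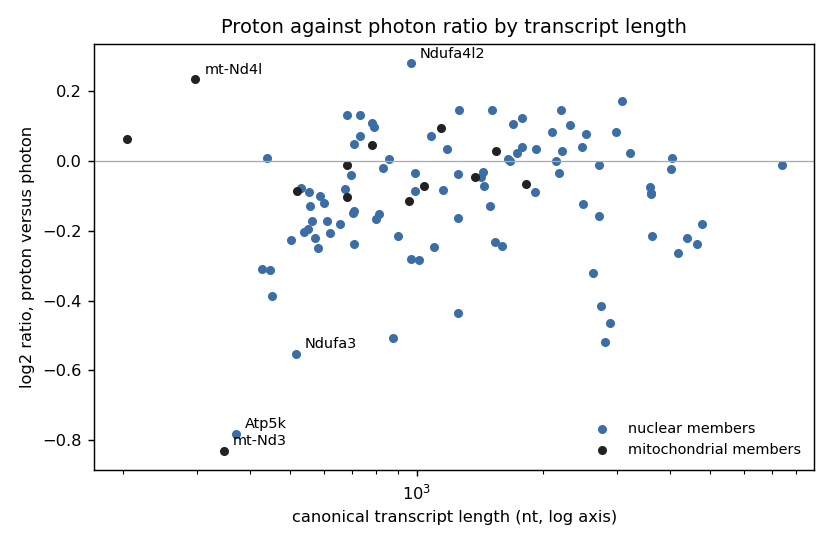
Log2 ratio of proton-irradiated to photon-irradiated mSGOs for each nuclear and mitochondrial member against the length of its canonical transcript in bases (log axis). Of the 18 nuclear members of 500 to 700 bases 17 lie below 0, and the lowest points are mt-Nd3 at -0.83 and Atp5k at -0.78.

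The mitochondrial members differed little from control after irradiation in the kept barcodes, but in opposite directions on the 2 sides of the Malat1 split. Their median log2 ratio was -0.03 after photons (3 of 13 higher, against 61.3% of all genes) and -0.09 after protons (3 of 13 higher, against 59.4%). Among barcodes with at least 1% Malat1 all 13 were higher in both, with medians of 0.39 and 0.34, whereas among barcodes below 1% the medians were -0.59 and -0.47. The medians of all genes were 0.06 and 0.01 in the first kind of barcode (7798 and 6977 of 13721 higher) and 0.12 and 0.13 in the second. The 13 took up 1.41% of UMIs in control, 1.85% after photons and 1.81% after protons in the first kind of barcode, and 0.476%, 0.299% and 0.325% in the second.

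Of single mitochondrial genes, mt-Nd3, a core complex I subunit (chrM:9459-9806, GRCm39), was 23.2 CPM in control, 35.6 after photons and 19.6 after protons. Its log2 ratio between protons and photons was -0.83 (-1.03 to -0.70), the only mitochondrial member at least 20% lower there. It is also among the shortest mitochondrial messages, at 348 bases. At least 25% higher than control were mt-Nd3 and mt-Atp8 after photons and mt-Atp8 after protons (9.44, 12.6 and 13.2 CPM). mt-Atp8 overlaps mt-Atp6 by 43 bases, so reads there can be assigned to either gene.

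In 11-day mSGOs the mitochondrial members stood well above the nuclear ones in their ratios to 7-day control mSGOs. All 13 mitochondrial members were at least 25% higher than in 7-day control mSGOs, with a median log2 ratio of 1.55, and 12 were at least 2-fold higher. The background was high, since 70.5% of all genes were at least 25% higher and 46.0% at least 2-fold higher, and the median of all genes was 0.89. Nuclear members had a median of 0.13 (0.33 and 0.18 with Malat1 at 1% or more and below), with 36 of 94 at least 25% higher and 24 at least 20% lower (background 12.1%). With the median over all genes taken off, the mitochondrial members stood at 0.66 and the nuclear members at -0.76 on the log2 scale. With library totals replaced by median-of-ratios scaling the medians were 0.50 and -0.88 (all genes 0.08), so the nuclear members then lay below control. The ribosomal protein genes were lower still, with a median of -1.13 (73 of 82 lower) and 17.7% of UMIs in place of 36.8%.

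Complex IV joins a core encoded by mitochondrial DNA with nuclear subunits around it. mt-Co1, its catalytic subunit, was 2882 CPM in control, 2608 after photons, 2658 after protons, 7799 in 11-day mSGOs and 2293 in tissue. Cox4i1, the nuclear subunit that binds beside it, was 1521, 1481, 1596, 1262 and 383 CPM. The mitochondrial gene was high in 11-day mSGOs (log2 ratio 1.44) while the nuclear one was not (-0.27).

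The other mitochondrial genes gave the same picture at different sizes. The largest log2 ratios to 7-day control mSGOs were those of mt-Nd4l (2.60), mt-Nd5 (2.25), mt-Nd4 (2.15) and mt-Co3 (2.10), and the smallest that of mt-Nd1 (0.96). mt-Cytb, the only mitochondrial subunit of complex III, was 1183 CPM in control and 3467 in 11-day mSGOs. The complex I genes mt-Nd4l and mt-Nd4 overlap by 7 bases on the same strand, which leaves some of their reads uncertain. mt-Nd5 and mt-Nd6 overlap by 14 bases but lie on opposite strands. The size depended on the barcodes used: with Malat1 at 1% or more in both libraries the median was 0.85 (all genes 0.74), and with Malat1 below 1% it was 2.73 over 115 barcodes of 11-day mSGOs.

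By complex, nuclear medians in 11-day mSGOs were 0.43 for II, 0.23 for I, -0.09 for III, -0.27 for IV and -0.35 for V, and 0.60 for assembly factors, against 0.89 for all genes. Among barcodes with at least 1% Malat1 they were 0.58 for II, 0.51 for I, 0.20 for III, 0.06 for IV, -0.07 for V and 0.78 for assembly factors, against 0.74 for all genes, so that III and IV changed sign and the assembly factors passed all genes. Ndufs1, the large iron-sulphur subunit of complex I, was highest, at 17.6 CPM in control and 56.6 in 11-day mSGOs (log2 ratio 1.63, interval 1.50 to 1.87). The low assembly factors Ndufaf7 (5.76 and 19.2 CPM) and Ndufaf5 (2.15 and 7.93 CPM) followed with 1.58 and 1.50, and then Ndufb2, Ndufaf4, Sdha and Ndufb7 with 1.11, 1.07, 1.07 and 1.01.

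The subunits of complex II differed in direction. Sdha went from 26.9 to 57.7 CPM and Sdhb, which carries its iron-sulphur clusters, from 70.4 to 95.1 CPM. Sdhc and Sdhd, the membrane anchors, were 50.9 and 69.1 CPM and 53.3 and 35.0 CPM. Of the 4, 3 were higher at 11 days, near the 80.8% of all genes that were, and Sdhd was lower (log2 ratio -0.59, -0.74 to -0.48). Under median-of-ratios scaling Sdhb (-0.61) and Sdhc (-0.60) were lower too. The promoters of Sdha and Sdhd both hold the NRF1 letters printed above.

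Low in 11-day mSGOs were Ndufa4l2 (log2 ratio -4.59, -4.86 to -4.55), Cox7c, a small complex IV subunit (1161 and 465 CPM, -1.32), Atp5e, the epsilon subunit of ATP synthase (758 and 374 CPM, -1.02), and Uqcrfs1, the Rieske protein of complex III (365 and 206 CPM, -0.82). Of these, Cox7c and Atp5e have short transcripts (540 and 429 bases). The genes for the c-ring of ATP synthase, which make the same mature protein, differed in direction. Atp5g1 was 227, 199, 177, 376 and 207 CPM from control to tissue. Atp5g2 was 1073, 873, 957, 636 and 204 CPM. Atp5g3 was 190, 195, 190, 270 and 120 CPM. At 11 days Atp5g1 and Atp5g3 were above, and Atp5g2 below, the 7-day control, whereas under median-of-ratios scaling all 3 were below it (Atp5g1 -0.32, Atp5g2 -1.80, Atp5g3 -0.55).

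**Figure D3:**
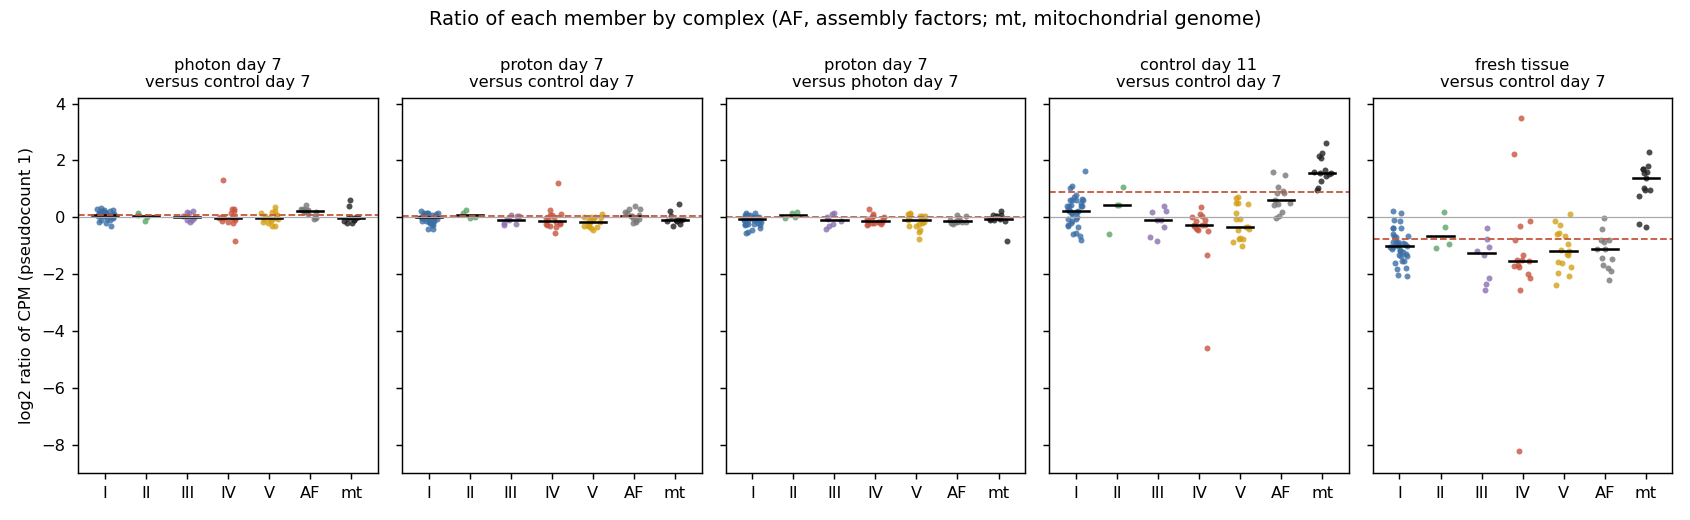
Log2 ratio of CPM in 5 comparisons for each member, grouped by complex and genome of origin; black bars are group medians and the red dashed line is the median of all 13721 genes. In 11-day mSGOs the mitochondrial genes (median 1.55) lie above that line and the medians of the nuclear complexes below it, and Ndufa4l2 is the lowest point there and in tissue, where it had 0 UMIs.

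In gland tissue nuclear members were low and most mitochondrial members high against 7-day control mSGOs. Of the 94 nuclear members 81 were at least 20% lower, where 64.9% of all genes were, and 2 were at least 25% higher, where 15.9% were; these are Cox7a1 and Cox8b, described below. Their median log2 ratio was -1.13 against -0.78 for all genes (-0.02 against -0.06 under median-of-ratios scaling, where the members thus stood level with all genes), and 55 were at least 2-fold lower (background 43.3%). By complex the medians were -0.65 for II, -1.0 for I, -1.17 for V, -1.26 for III and -1.53 for IV. Among barcodes with at least 1% Malat1, 158 of them in tissue, the nuclear median was -0.10 and that of all genes 0.07. By complex it was then 0.38 for II, -0.04 for I, -0.12 for V, -0.27 for III and -0.53 for IV. Of the 4 subunits of complex II 3 were higher, as were 7142 of all 13721 genes.

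Uqcrh, the hinge protein of complex III, was 1430 CPM in control and 240 in tissue (log2 ratio -2.57), and Cox7a2l, which helps to join complexes III and IV, was 504 and 84.8 CPM (-2.56). Of members with at least 200 UMIs over both libraries and 20 CPM in one of them, Ndufa5 and Sdhb stood at the other end, with 79.8 and 92.4 CPM and 70.4 and 80.1 CPM (log2 ratios 0.21 and 0.18). The ribosomal protein genes, another abundant group, had a median of -3.43, below that of the nuclear members.

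Of the mitochondrial members 11 were at least 25% higher in tissue, where 15.9% of all genes were. By the inverse of that fold 1 was lower, where 64.9% of all genes were. The median of the mitochondrial members was 1.38 (0.87 and 2.34 with Malat1 at 1% or more and below). mt-Nd3 (23.2 and 118 CPM, log2 ratio 2.30), mt-Nd4 (442 and 1561, 1.82) and mt-Cytb (1183 and 3823, 1.69) were among the highest. mt-Co1 was the lower one (-0.33, interval -0.36 to -0.30), and mt-Nd6 was at -0.22 (-0.50 to 0.03). The make-up of the mitochondrial messages differed accordingly. mt-Co1 held 32.8%, 31.9%, 32.5%, 28.7% and 13.1% of the UMIs of the 13 genes from control to tissue. mt-Cytb held 13.5%, 12.7%, 13.5%, 12.8% and 21.8%. In tissue mt-Cytb was thus the leading mitochondrial message in place of mt-Co1. Without the 5% limit and doublet removal the tissue ratio of mt-Co1 was 1.28 in place of -0.33, and the median of the 13 genes 3.02.

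Complex IV is built in many tissues with alternative isoforms of its small subunits. Of these, Cox7a1 and Cox8b reached the minimum of 50 UMIs only through tissue (263 of 304 and 76 of 76 deposited UMIs), so that their being higher there was set by the minimum and their levels are a description. Cox7a1, the heart and muscle isoform, was 0.190, 0.395, 0.404 and 0.282 CPM in the mSGO libraries and 12.5 CPM in tissue (3 UMIs in control and 74 in tissue; 95% interval of the log2 ratio 4.43 to 8.35). Cox8b, the muscle isoform of subunit 8, had 0 UMIs in every mSGO library and 22 in tissue, at least 19.5-fold higher than in control mSGOs (floor of 3 counts in the control library). The general isoforms were lower in tissue, with Cox7a2 at 656 and 230 CPM and Cox8a at 1254 and 429 CPM in control and tissue. Markers of skeletal muscle and brown fat (7 genes) summed to 25.3 CPM in control mSGOs and 2.19 in tissue, where Acta1, Myh4 and Ucp1 were at 0.

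Ndufa4l2 had 0 UMIs in the kept tissue barcodes, at least 595-fold lower than in control mSGOs (floor of 3 counts in the tissue library). Over all deposited tissue barcodes it had 2 UMIs.

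**Figure D4:**
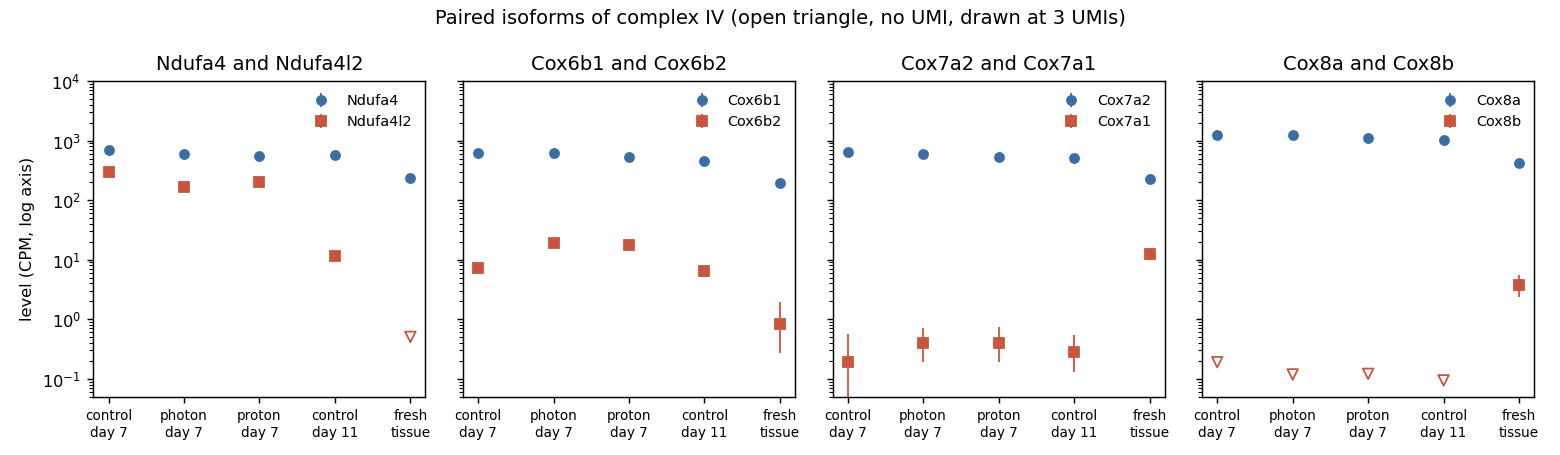
CPM (log axis) of paired isoforms of complex IV subunits in each library; bars are 95% Poisson intervals and an open triangle marks 0 UMIs, drawn at the floor of 3 counts. Cox7a1 and Cox8b are highest in tissue, and Ndufa4l2 goes from 301 CPM in control mSGOs to 11.5 in 11-day mSGOs and 0 in tissue.

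Clusters were made within the control, 11-day and tissue libraries from all barcodes with at least 200 genes, with no mitochondrial limit, with doublets left in and without the members among the genes used. They were named only from marker lists, and most mSGO clusters stayed unnamed. Shares by cluster have binomial intervals within 3.93% of the value and are descriptions, since a cluster is not a replicate.

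In tissue the clusters differed more than the libraries did. The cluster with all 6 ionocyte markers (46 barcodes, led by Foxi1 and Ascl3) had the highest nuclear share, 3.93%, with 13.7% mitochondrial UMIs. The next was a cluster of 151 barcodes led by Slit2, Stxbp5l and Ppargc1a, with 2.53% nuclear and 23.9% mitochondrial UMIs. It held 4 of the 6 ionocyte markers but not Foxi1 and is left unnamed. These shares are of UMIs pooled over a cluster, and the median barcode gave another order below the first place: its nuclear share was 2.26% in the ionocyte-like cluster but 1.02% in the cluster led by Slit2, below the 1.48% of the granular duct-like cluster. The granular duct-like cluster (249 barcodes) followed in mitochondrial share, with 19.1% and 1.79% nuclear. Its median barcode had 5.53% mitochondrial UMIs (quartiles 1.23% and 29.2%), against 23.1% in the cluster led by Slit2, 6.99% in the ionocyte-like and 5.57% in the Smgc-led acinar-like cluster. The 2 acinar-like clusters had nuclear shares of 0.929% and 0.669% and mitochondrial shares of 3.28% and 6.03%. Macrophage-like and T and NK-like cells lay between in nuclear share (1.21% and 1.71%) and low in mitochondrial share (2.77% and 2.97%).

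The 5% limit removes many of these cells, 367 of the 532 tissue barcodes over it being in 4 clusters. Over the limit were 91.4% of the cluster led by Slit2, 60.9% of the ionocyte-like, 54.0% of the Smgc-led acinar-like and 50.6% of the granular duct-like barcodes, against 8.92% of the other acinar-like cluster. Of 2 unnamed clusters 38.3% (180 barcodes, led by Mup5 and Prol1) and 28.6% (35 barcodes) were over it. The tissue shares also move with secretory messages, because the 10 leading genes of the tissue library took 84.6% of UMIs in the larger acinar-like cluster and 35.7% in the ionocyte-like one. With those 10 genes left out of the total, the nuclear shares of these clusters were 6.04% and 6.11%, close to each other, while the Smgc-led acinar-like cluster had 2.15%. The cluster led by Slit2, the granular duct-like, the macrophage-like and the T and NK-like clusters then had 4.10%, 4.77%, 4.42% and 3.49%. Mitochondrial shares were then 21.3% in both the larger acinar-like and the ionocyte-like cluster, 38.7% in the cluster led by Slit2 and 50.9% in the granular duct-like cluster, which thus came first.

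On full totals, 77 of the 94 nuclear members had their highest tissue level in the ionocyte-like cluster and 7 in the cluster led by Slit2. In the latter, 12 of the 13 mitochondrial members were highest. The share of all genes highest in these clusters was not counted, nor was the tally repeated without the 10 leading genes. It is therefore not read as particular to the members. Cox8a was 2305 CPM in the ionocyte-like cluster, 1161 in the cluster led by Slit2 and 386 in the larger acinar-like one. Atp5b, the catalytic subunit of ATP synthase, was 1085, 568 and 146 CPM in these clusters. With the 10 leading genes left out of the total, Cox8a was 3586, 1878 and 2508 CPM and Atp5b 1688, 918 and 945 CPM, so that the larger acinar-like cluster then stood above the cluster led by Slit2. Cox7a1 was highest in the ionocyte-like cluster (173 CPM) and the cluster led by Slit2 (80.5 CPM), and Cox8b in the granular duct-like cluster (32.1 CPM). Lower levels of Cox7a1 were also counted in other clusters, among them 50.7 CPM in granular duct-like, 32.1 in T and NK-like and 25.1 in macrophage-like barcodes. These clusters held 591227, 155646 and 318731 UMIs, so their levels of Cox7a1 rest on few UMIs, as does that of Cox8b. The T and NK-like name rests on 3 of 10 markers. Without the 10 leading genes Cox7a1 was 270 CPM in the ionocyte-like, 135 in the granular duct-like, 130 in the Slit2-led, 91.4 in the macrophage-like and 90.6 in the larger acinar-like cluster, so that the order below the first place depends on the total.

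In 11-day mSGOs 8 of 9 clusters had nuclear shares of 2.00% to 2.39% and mitochondrial shares of 2.48% to 3.27%, granular duct-like, myoepithelial-like, cycling-like and squamous-like clusters among them. The exception was an unnamed cluster of 3351 barcodes with 0.625% nuclear and 9.17% mitochondrial UMIs, a median of 835 UMIs and 3.59% ribosomal protein UMIs. Malat1 took 9.21% of its UMIs, and 94.7% of its barcodes were over the limit. Ndufa4l2 was highest in the myoepithelial-like and squamous-like clusters (48.2 CPM in each) and 3.45 to 15.8 CPM in the others, all of them below the 211 to 400 CPM of the 6 clusters of control mSGOs. Cox6b2 was highest in the cycling-like cluster, at 40.8 CPM.

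In control mSGOs nuclear shares ran from 1.75% (squamous-like, 93 barcodes) to 3.08% (an unnamed cluster of 1079 barcodes) and mitochondrial shares from 0.232% to 2.66%. The highest mitochondrial share was in an unnamed cluster of 754 barcodes in which Malat1 took 8.46% of UMIs. The 2 largest clusters, with 2955 and 1776 barcodes, had 0.232% and 0.238% mitochondrial UMIs and Malat1 at 0.244% and 0.263%.

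**Figure D5:**
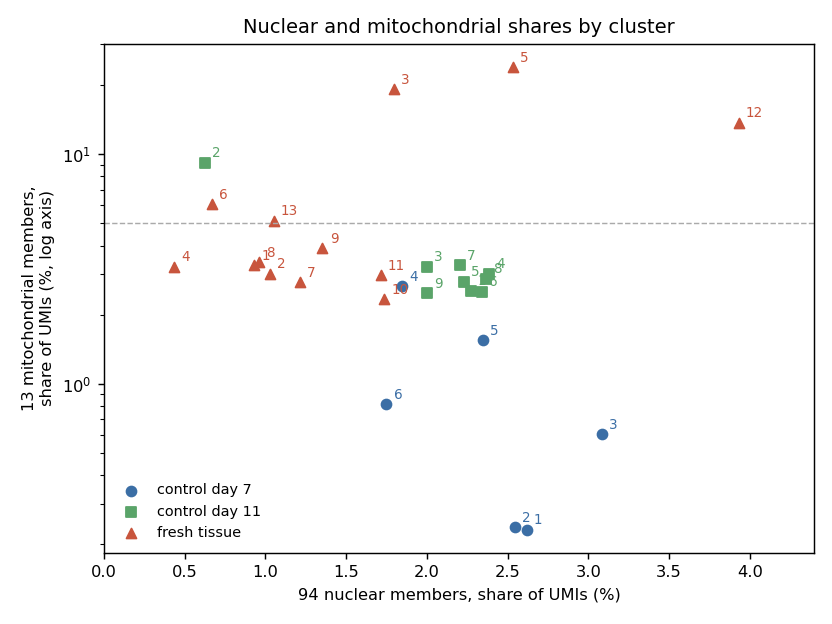
Nuclear against mitochondrial share of UMIs (percent) for each cluster of control mSGOs, 11-day mSGOs and tissue, made with no mitochondrial limit (mitochondrial share on a log axis); numbers are cluster numbers and the dashed line is the 5% limit. Tissue clusters 5, 3 and 12 (led by Slit2, granular duct-like and ionocyte-like) lie at 23.9%, 19.1% and 13.7% mitochondrial UMIs, and 11-day cluster 2 at 9.17%.

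Over the 9 clusters of 11-day mSGOs, the members most like the summed nuclear level were Uqcr11 (Pearson's r 0.999), Atp5j2 (0.998) and Ndufa11 (0.997), and the least alike were mt-Nd6 (-0.988), mt-Nd4 (-0.980) and mt-Co1 (-0.975). Among nuclear members the assembly factors Ndufaf2 (-0.756) and Ndufaf7 (-0.563) were least alike. These are descriptions over 9 points of 1 library, and the cluster of 3351 barcodes stands apart from the rest: Uqcr11 was 58.0 CPM there and at least 243 CPM in each of the other 8. Per barcode, thinned to 1000 UMIs, Spearman's rho between nuclear and mitochondrial member UMIs in kept barcodes was -0.31 in control (2552 barcodes), -0.18 after photons, -0.19 after protons, -0.02 in 11-day mSGOs and -0.05 in tissue. Without the 5% limit, which caps the mitochondrial count, it was -0.44, -0.27, -0.30, -0.30 and -0.11, and for control barcodes with at least 1% Malat1 it was -0.14. Counts per barcode are sparse, and nothing is read from the weak values.

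The related genes were read from lists of pathways beside the chain. Of 15 glycolysis genes 10 were at least 20% lower and 5 at least 25% higher in 11-day mSGOs, where 12.1% and 70.5% of all genes were, with a median log2 ratio of -0.88. In tissue all 15 were at least 20% lower, where 64.9% of all genes were (median -3.31). Pgk1, phosphoglycerate kinase, was 3652 CPM in control, 3068 after photons, 3578 after protons, 387 in 11-day mSGOs and 32.4 in tissue. The 5 libraries stood in the same order for Pgk1 as for Ndufa4l2. After photons 3 of the 15 were at least 20% lower (background 6.44%), among them Pkm (log2 ratio -0.46) and Eno1 (-0.41). After protons 1 was, Gapdh (-0.66), a share near the background of 7.8%.

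The 17 genes of the TCA cycle had medians of -0.01 after photons, 0.05 after protons, 0.65 at 11 days (all genes 0.89) and -0.87 in tissue (all genes -0.78). At 11 days 10 were at least 25% higher and 3 at least 20% lower, where 70.5% and 12.1% of all genes were, and in tissue 15 were lower (background 64.9%). Of 12 complex I assembly genes outside the naming rule, 10 were at least 25% higher and 0 at least 20% lower at 11 days (median 1.20; backgrounds 70.5% and 12.1%). For 26 such genes of complex IV the counts were 12 and 8 against the same backgrounds (median 0.14), nearer to the nuclear subunits. Pet100, which helps to assemble complex IV, had a log2 ratio of 0.50 after photons and of -0.75 between protons and photons, a pattern like that of Atp5k.

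Among 20 regulators of mitochondrial biogenesis, 15 were at least 25% higher and 1 at least 20% lower in 11-day mSGOs, near the 70.5% and 12.1% of all genes (median 0.92, all genes 0.89). Ppargc1a, the coactivator PGC-1α, had 4 UMIs in control (0.253 CPM) and 3355 in 11-day mSGOs (105 CPM, interval of the log2 ratio 7.34 to 10.6). Esrrg, a nuclear receptor that works with it, had 2 UMIs and 13661 UMIs (428 CPM, interval 9.87 to 14.8). Both were near 0 in all 7-day libraries. Among the 11-day clusters both were highest in the unnamed one of 3351 barcodes, where Malat1 took 9.21% of UMIs. There Ppargc1a was 329 CPM and Esrrg 1289 CPM. In tissue Ppargc1a was 10.1 CPM over the kept barcodes and 310 CPM in the cluster led by Slit2, where it is a defining gene, against 89.9 CPM in the ionocyte-like cluster.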

How the data were processed

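The authors deposited whole-number counts of UMIs per gene and barcode for 5 10x 3′ libraries, 1 per group, grouped by GEO's labels. The file headers name software version 3.0.1 (7-day, tissue) and 7.0.0 (11-day), the submitters' processing notes Cell Ranger 5 and mm10, and the study's methods GRCm39. Version 7 of this software counts intronic reads by default, but the setting used is not given in the sources used here. Members were matched by Ensembl ID (30406 IDs in both gene lists of 31053 and 32285), and coordinates and lengths come from GENCODE vM39 on GRCm39. The members and gene lists were chosen with earlier results of these data known.

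Barcodes with at least 200 genes and at most 5% mitochondrial UMIs were kept. Scrublet (scanpy 1.11.5) scores were removed from the top at the expected rate of 0.8% per 1000 barcodes, because its automatic threshold marked 0% to 10.1%. This took 14.6% and 14.3% of the photon and proton barcodes and 5.50%, 8.27% and 1.13% of control, 11-day and tissue ones. The study's minimum of 2500 genes was run as an alternative, since it keeps 193 control and 25 tissue barcodes. Each ratio was taken as log2 of CPM plus 1 in both libraries, with exact conditional binomial 95% intervals without pseudocount. The ratio calculation was checked on simulated data. Members counted as called were at least 25% higher or 20% lower (or 2-fold either way). Named genes were the mitochondrial members, core subunits and isoforms, the 2 highest control levels per complex, the 5 highest and 5 lowest nuclear ratios per comparison (2 for related lists; at least 200 UMIs over both libraries and 20 CPM in the higher), and the 3 most and 3 least like the nuclear sum over clusters. Other genes the text names were chosen after their values were seen. Clusters used 2000 variable genes, 30 components and Leiden (leidenalg 0.10.2) at resolution 0.8.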

Additional observations from a re-analysis of the deposited data

Results flagged for a closer look

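Atp5k, the e subunit of ATP synthase, stood on opposite sides of the control library after the 2 kinds of irradiation. Its log2 ratio to control was 0.35 (95% interval 0.25 to 0.46) after photons and -0.43 (-0.56 to -0.32) after protons, with 1 library a group, and the difference between them was not tested. It was singled out because the libraries moved in opposite directions, by at least 25% up and 20% down. Of the 107 members, 38 had opposite signs and Atp5k alone reached that size. The shares of all genes that did so were not counted, so how unusual this is among genes is not known. Among barcodes with at least 1% Malat1 the ratios were 0.29 and -0.57. Atp5k has a canonical transcript of 371 bases, and the part of transcript length in this difference was not tested.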

How the results depend on the processing

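Every group is 1 library, so replicates could not be left out. No paired analysis was possible because each group has 1 library and shares no second replicate number. Depth limited the low members: in tissue a count of 0 allows 0.506 CPM, and in control mSGOs 0.190 CPM. Nuclear medians of the proton comparisons moved by less than the spread used as limit under every alternative run. Of the 150 group medians computed, 10 were those reported, 80 stayed within that limit, 59 moved and 1 reversed; of the values of single genes under alternatives 2045 stayed within it, 1624 moved and 51 reversed. A change of sign was not always counted as reversed. Among the medians counted as moved, the nuclear one at 11 days went from 0.13 to -0.88 under median-of-ratios scaling. The mitochondrial one after photons went from -0.03 to 0.51 with at least 2500 genes. The causes were not tested.

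Medians of the mitochondrial members are given in the order 11-day, tissue, photon and proton against control (reported: 1.55, 1.38, -0.03 and -0.09). They were 1.51, 3.02, 0.23 and 0.17 without the mitochondrial limit and with doublets kept, as in every value given as without the limit, and 1.51, 2.83, 0.23 and 0.17 with all deposited barcodes. At Malat1 of at least 1% they were 0.85, 0.87, 0.39 and 0.34. At Malat1 under 1%, an alternative chosen after seeing the data, they were 2.73, 2.34, -0.59 and -0.47. With at least 2000 UMIs they were 1.36, 1.13, 0.47 and 0.33. With at least 2500 genes they were 1.20, -0.39, 0.51 and 0.51, the tissue value resting on 25 barcodes. With barcodes weighted equally they were 2.25, 2.09, -0.28 and -0.40, and thinned to 1000 UMIs 1.32, 1.19, -0.74 and -0.58. Under median-of-ratios scaling they were 0.50, 2.52, -0.14 and -0.19. With totals that leave out mitochondrial and ribosomal protein genes the 11-day, tissue and proton medians were 1.20, 0.78 and -0.17. With doublets kept the tissue, photon and proton medians were 1.42, -0.13 and -0.19. Between protons and photons the median of -0.05 became 0.15 after thinning and 0.14 at Malat1 under 1%.

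For the nuclear members at 11 days (reported 0.13) the median was 0.33 at Malat1 of at least 1%, -0.030 with at least 2500 genes, -0.88 under median-of-ratios scaling, -0.18 with totals without mitochondrial and ribosomal protein genes and 0.00 over the 81 structural subunits. In tissue (reported -1.13) it was -0.94 without the limit, -1.56 with at least 2500 genes, -1.45 with all deposited barcodes, -0.10 and -1.41 at Malat1 of at least and under 1%, -0.81 after thinning, -0.020 under median-of-ratios scaling, -1.72 with totals without mitochondrial and ribosomal protein genes and -0.86 with barcodes weighted equally. After photons (reported 0.05) it was -0.058 with at least 2500 genes and -0.059 under median-of-ratios scaling.

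The single genes counted as reversed were as follows. Under median-of-ratios scaling at 11 days, Atp5a1 was -0.59, Atp5g1 -0.32, Atp5g3 -0.55, Ndufa5 -0.43, Ndufb7 -0.030, Ndufs7 -0.40, Sdhaf2 -0.58, Sdhaf4 -0.16, Sdhb -0.61, Sdhc -0.60 and mt-Nd1 -0.089. With at least 2500 genes Sdhaf2 was -0.054 and Sdhb -0.12 there, and at Malat1 under 1% Sdhc was -0.088. Under median-of-ratios scaling in tissue, Atp5g3 was 0.46, Atp5mpl 0.19, Ndufa3 0.75, Ndufaf4 0.25, Ndufs1 0.70, Ndufs7 0.26, Ndufv1 0.43, Sdha 0.76, Sdhc 0.016, Sdhd 0.15, Uqcrb 0.078 and mt-Co1 0.80. At Malat1 of at least 1% in tissue, Atp5e was 0.15, Atp5g3 0.042, Ndufa3 0.83, Ndufaf4 0.0069, Ndufs1 0.24, Ndufv1 0.077, Sdha 0.93, Sdhaf1 0.98, Sdhaf4 0.57 and Sdhd 0.17. Sdha in tissue was 0.21 without the limit and 0.053 after thinning. mt-Co1 in tissue was 1.28 without the limit, 1.00 with all deposited barcodes, 0.53 with barcodes weighted equally and 0.41 at Malat1 under 1%. With at least 2500 genes in tissue, mt-Atp6 was -0.41, mt-Co2 -0.79, mt-Co3 -0.36, mt-Nd1 -1.15, mt-Nd2 -0.61 and mt-Nd5 -0.39. After photons, mt-Atp8 was -0.32 and mt-Nd3 -0.14 when thinned, and mt-Atp8 -0.0062 with barcodes weighted equally.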
